A study of Homo sapiens with 7 samples.

Results

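The transcripts of 10 enzymes that build purine and pyrimidine nucleotides were followed in K562 cells during the acquisition of dasatinib resistance. The enzymes are PPAT, PAICS, GART, PFAS, ATIC, ADSL, IMPDH1, IMPDH2, GMPS and CAD. They were found by gene symbol among the 25702 gene IDs of the count table, and all 10 passed the filter on low counts. K562 is an established chronic myeloid leukemia line that is driven by the BCR::ABL1 kinase, and dasatinib is an inhibitor of that kinase. All 7 lines derive from K562 and 1 library was sequenced from each. The control group held a drug naive line and a line kept in DMSO, the drug vehicle. The dasatinib resistant (DasR) intermediates were taken during a dose escalation under long-term drug exposure, and were the 10, 15 and 25 nM lines (early stage) and the 50 and 200 nM lines (late stage). Dose and time in culture rose together and cannot be told apart, and each line is 1 culture. The DasR lines are successive samples of a single escalation and not independent derivations.

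Purine nucleotides are built on the ribose of PRPP. PPAT performs the first committed step, and GART, PFAS, PAICS, ADSL and ATIC carry the ring to completion as IMP. IMP is then the branch point: IMPDH1 or IMPDH2 and afterwards GMPS lead to GMP, while another branch leads to AMP. GART and ATIC take formyl groups from folate. CAD is a single protein with the first 3 activities of pyrimidine synthesis. DHODH and UMPS complete UMP, and CTPS1 makes CTP in a later step. Dividing leukemic cells draw on these pathways for DNA and RNA, and MYC is known to bind E-boxes, which read CACGTG, at several of these genes.

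PPAT and PAICS lie head to head on chromosome 4 and are transcribed from 1 shared control region, and this region is printed here because it serves both genes. In GRCh37 (hg19), PPAT lies at chr4:57259528-57301781 on the minus strand and PAICS at chr4:57301907-57330744 on the plus strand. Of 3 RefSeq start sites listed for PAICS, the one nearest to that of PPAT is 137 bases from it and is the only one with an E-box in its promoter window. The stretch between this start site and that of PPAT is shown on the plus strand at chr4:57301782-57301917, with GC boxes (GGGCGG, either strand) in capitals. The E-boxes found in promoters of these enzymes follow, each within 30 bases on the strand of its gene and with the E-box in capitals. PAICS and PPAT show 1 and the same site from either strand, at chr4:57301938-57301967 and chr4:57301946-57301975. The ATIC sites are at chr2:216176724-216176753 and chr2:216176799-216176828, both on the plus strand.
Stretch between PPAT and PAICS: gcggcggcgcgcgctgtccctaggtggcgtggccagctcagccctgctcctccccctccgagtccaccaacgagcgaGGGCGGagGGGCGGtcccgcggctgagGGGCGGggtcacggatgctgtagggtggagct
PAICS E-box: ctggaaagctgtatttgctgCACGTGgaaa
PPAT E-box: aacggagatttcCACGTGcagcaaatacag
ATIC first E-box: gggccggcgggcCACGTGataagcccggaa
ATIC second E-box: ctcctacctgcgCACGTGgtgccgccgctg
RefSeq promoters (GRCh38.p14 table, 250 bases before to 50 after a start, each located in GRCh37 by exact match) were given for 8 of the 10 enzymes, all but ADSL and IMPDH2. The E-box CACGTG, which reads alike on both strands, was found in 3 of these 8, and in 8.77% of all genes with a promoter in the table. The 3 are ATIC, PPAT and PAICS, and the last 2 are counted separately for their 1 shared site. E-boxes outside the windows were not searched for. TGCGCA, the core of the site of NRF1 and also alike on both strands, was found in ATIC alone, where it overlaps the second E-box by its last letters, against 9.76% of all genes. GC boxes, a motif chosen after the sequences were seen, were in all 8, against 48.3% of all genes. These matches describe the letters of the windows and show no binding.

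The total count per library ranged from 20059656 to 27844799. The lowest count of any of the 10 enzymes in a library was 1041, for PFAS in the drug naive line, where the counting error is 3.10% of the value. Levels are CPM, counts scaled to a common library total. The erythroid genes that mark K562 were all 10 detected, and HBG2, a fetal globin, was the most abundant on average, although HBZ, an embryonic globin, was higher in the 15 and 25 nM lines. Their summed level was 3980.7 CPM in the drug naive line, 3411.4 in DMSO, 9589.6, 10832.8 and 8224.1 in the 10, 15 and 25 nM lines and 5756.9 and 4610.3 in the 50 and 200 nM lines. The erythroid sum thus stood highest in the early stage, in which 8 of its 10 genes were above both controls, as were 35.9% of all genes tested. Markers of other cells were low in sum for T cells (4.17 to 29.8 CPM, mostly CD3D) and fibroblasts (5.10 to 19.6, led on average by COL1A1 and in the DMSO line by COL1A2), and MS4A1, a marker of B cells, was at 3 counts or fewer in every library. Monocyte markers summed to 26 to 102.7 CPM, nearly all from LYZ, and epithelial markers to 104.8 to 187.3 CPM, led on average by KRT19, with EPCAM above it in the early stage lines, and with CDH1 at 3 counts or fewer in every library. The part of these marker levels in the results below was not tested.

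In the early stage intermediates the 10 enzymes did not move as a block. PFAS, PPAT and CAD were higher than in the controls, by 1.69-, 1.42- and 1.34-fold, and ATIC, GMPS and IMPDH2 were lower, at 0.774, 0.838 and 0.844 of the control level. No enzyme passed a false discovery rate (FDR) of 0.005, the study's threshold, when it was applied here to edgeR's quasi-likelihood test over 10452 genes, which 18% of all genes tested did (7.92% higher and 10.1% lower). Without adjustment, 8 of the 10 had a p under 0.05, against 54.2% of all genes, and at 0.005 DESeq2 called PPAT and PFAS (34% of all genes) and limma voom called PPAT (18.4%). At an FDR of 0.05, 6 of the 10 passed, 3 in each direction, against 46.5% of all genes (22.6% higher and 24% lower). That count was 2 without the drug naive line (25.3% of all genes), 3 without DMSO (33.7%), and 3, 1 and 2 without the 10, 15 and 25 nM line (42%, 37.6% and 33.8%), so the share of all genes fell as well. The ranges of CPM did not overlap for 9 of the 10, with 5 above and 4 below the controls, whereas 69.8% of all genes tested had ranges that did not overlap (35.9% above and 34% below). The median log2 fold change was 0.16 for the 10 enzymes and 0.00 for all genes, and the median size without sign was 0.35 for both. The amount of change among these enzymes was therefore near that of the average gene tested.

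**Figure D1:**
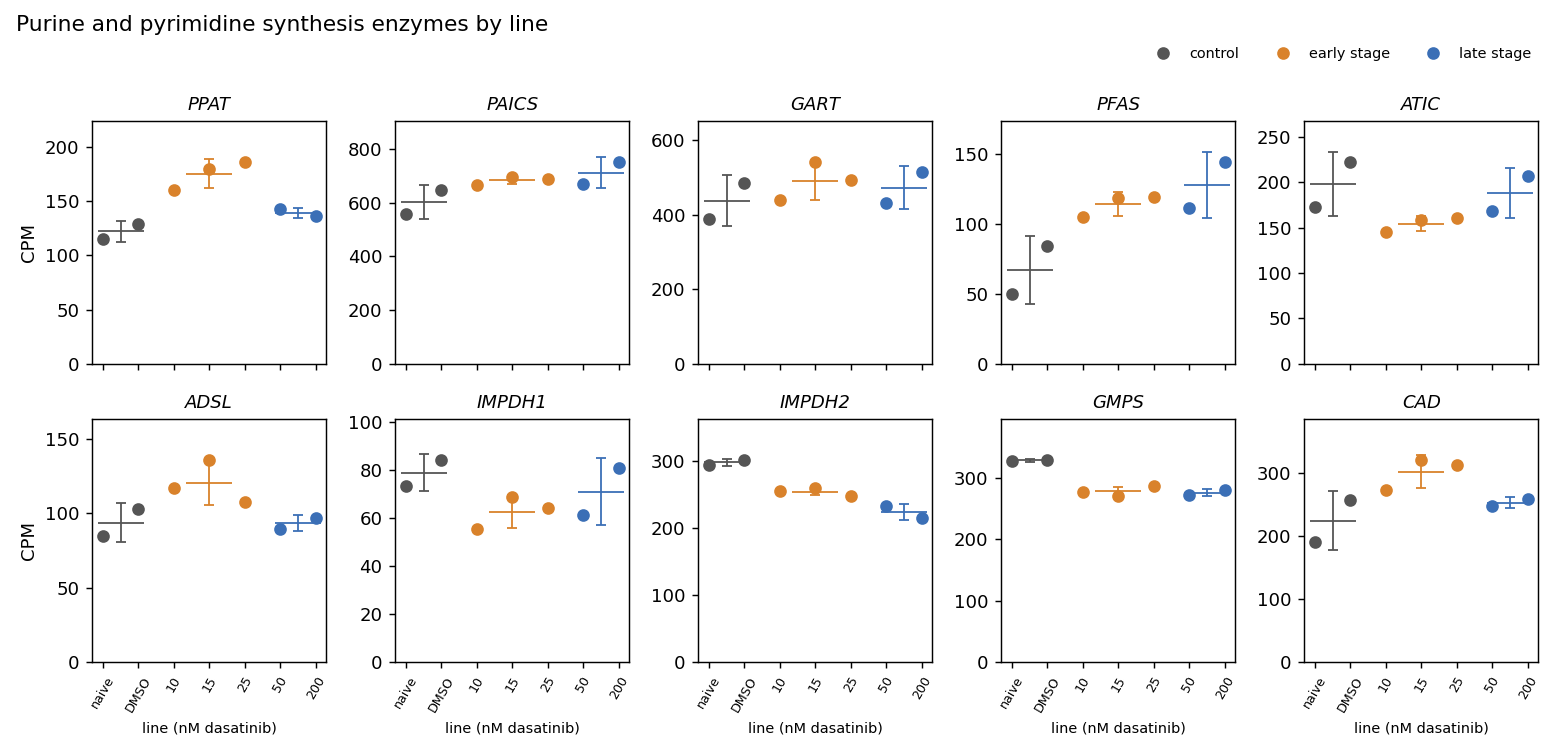
Level in CPM (vertical axis, from 0) of each of the 10 enzymes in the 7 lines (horizontal axis, in order of dose), where each point is 1 library and the bars are the mean and SD of the controls, early stage and late stage. PFAS is at 49.6 CPM in the drug naive line and above both controls in all 5 DasR lines, IMPDH2 and GMPS are below both controls in all 5, and PPAT is highest in the 3 early stage lines.

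Among the enzymes that lead to IMP, PPAT was the nearest to the threshold. It measured 115.7 CPM in the drug naive line and 129.3 in DMSO, then 160.3, 179.9 and 186.6 in the 10, 15 and 25 nM lines and 142.8 and 136.2 in the 50 and 200 nM lines. All 5 DasR lines were above both controls, and the early stage lines were above the late stage lines. Means were 175.6 ± 13.7 CPM (SD, n = 3) in the early stage and 122.5 ± 9.66 (SD, n = 2) in the controls, a log fold change of 0.50 (SE 0.10, FDR = 0.0053, edgeR). PPAT was past 0.005 with upper quartile scaling, with limma voom, with DESeq2 and with no filter, so its call turns on the choice of method. The 2 annotated pseudogenes of PPAT and an opposite-strand RNA that shares 121 exonic bases with it could take or give reads.

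PFAS, the enzyme of the fourth step (chr17:8150936-8173809), had the largest fold change of the 10. Its level was 49.6 CPM in the drug naive line, 84.2 in DMSO, 104.6, 118.4 and 119.3 in the early stage lines, and 111.3 and 144.3 in the late stage lines. Every DasR line was above both controls, and the controls themselves lay far apart, with a coefficient of variation of 36.6% against 7.24% among the early stage lines. The log fold change was 0.76 (SE 0.21, FDR = 0.0221, edgeR) in the early and 0.92 (SE 0.23, FDR = 0.0207) in the late stage. Leaving out a control moved the early stage value between 0.44 and 1.14.

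PAICS, which performs a pair of consecutive steps, had the highest CPM of the 10 in every line. It measured 558.3 and 647.6 CPM in the drug naive and DMSO lines, 667.2, 693.8 and 686.7 in the early stage and 670.3 and 752.2 in the late stage. Every DasR line was above both controls, although the distance from DMSO to the 10 nM line was smaller than that between the controls. Its log fold change was 0.17 in the early (SE 0.09, FDR = 0.161) and 0.22 in the late stage (SE 0.10, FDR = 0.118), and it passed neither threshold. Although the genes share a control region, PAICS ranked 1897 of 10451 genes by closeness to the PPAT profile over the 7 lines, with a root mean square difference of 0.20 on the log2 scale against a median of 0.31 over all genes. The ratio of PAICS to PPAT per length lay between 3.92 in the 25 nM line and 5.88 in the 200 nM line, and all 3 early stage lines (4.43, 4.11 and 3.92) had lower ratios than the controls (5.14 and 5.33) and the late stage lines (5.0 and 5.88). PAICS has 7 annotated pseudogenes.

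GART, a protein of 3 activities in the pathway (chr21:34876238-34915797), was the only enzyme whose early stage range overlapped that of the controls. The controls measured 390.0 and 486.0 CPM, the early stage lines 439.0, 542.8 and 494.6 and the late stage lines 432.3 and 514.5. The log fold changes of 0.15 (FDR = 0.358) and 0.09 (FDR = 0.643) were close to their SEs of 0.13 and 0.14.

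ADSL, which acts in the IMP path and again in the AMP branch (chr22:40742465-40786467), measured 84.6 and 103.0 CPM in the controls, 117.0, 136.3 and 107.8 in the early stage and 89.5 and 97.2 in the late stage. The early stage lines were above all others, and the late stage lines lay within the range of the controls. The log fold change was 0.35 (SE 0.12, FDR = 0.0525, edgeR) in the early and -0.03 (SE 0.13, FDR = 0.896) in the late stage. ADSL shares 1344 exonic bases with a protein-coding gene model on the same strand.

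ATIC, which closes the purine ring (chr2:216176679-216214496), went the other way in the early stage. It measured 173.1 and 222.8 CPM in the controls, 145.2, 158.4 and 160.2 in the early stage and 168.3 and 207.5 in the late stage. The early stage lines were below all others and the late stage lines overlapped the controls. The log fold change was -0.37 (SE 0.13, FDR = 0.0457, edgeR) in the early and -0.09 (SE 0.14, FDR = 0.627) in the late stage. Steps of the same path thus differed in sign, with PFAS and PPAT above and ATIC below the controls in the early stage.

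In the branch to GMP, all 3 enzymes were lower in the early stage lines than in either control. IMPDH2, the more abundant of the enzymes that oxidize IMP (chr3:49061758-49066880), measured 294.2 and 302.3 CPM in the controls, 254.7, 259.8 and 248.6 in the early stage and 232.4 and 215.4 in the late stage. The groups were separate, with the late stage below the early stage. Its log fold change was -0.24 (SE 0.08, FDR = 0.0362, edgeR) in the early and -0.43 (SE 0.09, FDR = 0.00964) in the late stage. In the annotation, IMPDH2 shares 1680 exonic bases with a protein-coding gene model on its strand and 132 with an RNA on the opposite strand.

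GMPS, which makes GMP from XMP (chr3:155588439-155661809), had the tightest controls. They measured 328.1 and 330.6 CPM, the early stage lines 278.3, 271.3 and 286.9 and the late stage lines 272.3 and 281.4. The DasR lines were all below both controls and the stages overlapped. The log fold change was -0.26 (SE 0.07, FDR = 0.0263, edgeR) in the early and -0.27 (SE 0.08, FDR = 0.0389) in the late stage.

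IMPDH1 (chr7:128032331-128050040) measured 73.3 and 84.2 CPM in the controls, 55.2, 68.7 and 64.0 in the early stage and 61.0 and 80.8 in the late stage. The early stage lines were below both controls, while the 200 nM line lay between them. Its log fold change was -0.35 (SE 0.14, FDR = 0.0820) in the early and -0.17 (SE 0.16, FDR = 0.420) in the late stage, and neither passed 0.05. IMPDH1 has 10 annotated pseudogenes, so its level is uncertain. Per length, IMPDH2 exceeded IMPDH1 by 6.46-fold in the drug naive line and by 7.43-fold in the 10 nM line, but by 4.29-fold in the 200 nM line, the lowest ratio of the 7.

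CAD, the enzyme of pyrimidine synthesis (chr2:27440237-27466811), measured 191.0 CPM in the drug naive and 257.2 in the DMSO line, 272.4, 321.4 and 312.4 in the early stage and 247.1 and 259.1 in the late stage. The early stage lines were above both controls and both late stage lines, while the late stage overlapped the controls. The log fold change was 0.42 (SE 0.13, FDR = 0.0323, edgeR) in the early and 0.16 (SE 0.14, FDR = 0.413) in the late stage. The control mean was 224.1 ± 46.8 CPM (SD, n = 2), and without 1 control the early stage value lay between 0.23 and 0.60.

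**Figure D2:**
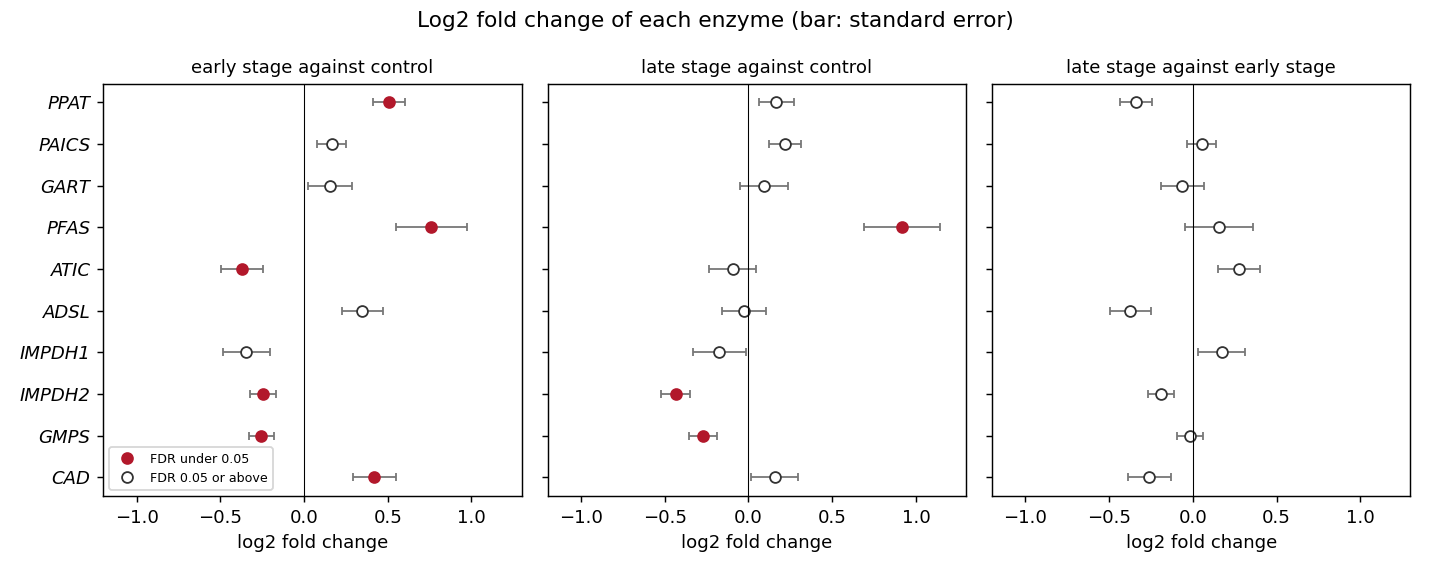
Log2 fold change (horizontal axis) of each of the 10 enzymes (vertical axis) for the early stage against control, the late stage against control and the late stage against the early stage, with points for the fitted value and bars for its standard error; filled points have an FDR under 0.05. In the early stage 6 of the 10 points are filled, 3 on either side of 0, in the late stage 3 are, and between the stages none is.

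In the late stage fewer enzymes stood apart from the controls. None passed 0.005 in edgeR, a threshold passed by 7.98% of all genes tested (3.42% higher and 4.56% lower), and 3 had an unadjusted p under 0.05, against 45.9% of all genes. DESeq2 called PFAS and IMPDH2 at 0.005, against 24% of all genes. At an FDR of 0.05, PFAS was higher and IMPDH2 and GMPS were lower, 3 of 10 against 33.9% of all genes (16.2% higher and 17.6% lower). Without the drug naive line (13.4% of all genes) or the 200 nM line (24.7%) IMPDH2 alone passed, and without any 1 of the other libraries PFAS and IMPDH2 did. Ranges did not overlap for 5 of the 10, 3 above and 2 below the controls, against 67.7% of all genes (34.3% above and 33.4% below). The median log2 fold change was 0.03 for the enzymes and 0.00 for all genes. Leaving out 1 library turned the sign of the late stage value for GART, ATIC, ADSL, IMPDH1 and CAD, none of which had passed, and weaker filters turned that of ADSL. These comparisons share their control libraries, so a like value in both stages partly repeats the same controls.

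The comparison between stages does not use the level of the controls. None of the 10 enzymes passed an FDR of 0.005 or 0.05 in edgeR, while 0% and 12.7% of all genes tested did. With DESeq2 none of the 10 passed 0.005, which 10.9% of all genes did, and PPAT (FDR = 0.0153) and ADSL (FDR = 0.0409) passed 0.05, which 21% did. In all, 3 had an unadjusted p under 0.05 in edgeR against 33% of all genes. The largest differences were for ADSL (log fold change -0.37, SE 0.12, FDR = 0.0862) and PPAT (-0.34, SE 0.09, FDR = 0.0578), both lower in the late stage. The sign of PAICS, GART, PFAS, IMPDH1 and GMPS, none of which had passed, turned when 1 of the libraries was left out. Ranges did not overlap for 5 of the 10, ATIC being above and PPAT, ADSL, IMPDH2 and CAD below in the late stage lines, against 53.3% of all genes (26.8% above and 26.4% below).

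When all 5 DasR lines were set against the controls, a grouping that rests on the treatment label alone, no enzyme passed 0.005 in edgeR, which 8.08% of all genes did. DESeq2 called PFAS and GMPS (25.4% of all genes), and 4 had an unadjusted p under 0.05 in edgeR against 44.2% of all genes. At an FDR of 0.05 PFAS (0.83, SE 0.20), GMPS (-0.26, SE 0.07) and IMPDH2 (-0.32, SE 0.09) passed, 3 of 10 against 32.4% of all genes. None passed without the drug naive line (7.74% of all genes), and 1, PFAS, passed without DMSO (15.5%) or without the 10, 25 or 50 nM line (25.3%, 22.1% and 26.9%), while 6 passed without the 200 nM line (41.9%). Among the DasR lines alone, a trend with log2 dose passed 0.005 for none of the 10 in edgeR (0.00995% of all genes, 4 enzymes with an unadjusted p under 0.05 against 34.4%) and for ATIC in DESeq2 (13.8%). At an FDR of 0.05 ATIC passed in edgeR, with a slope of 0.11 on the log2 scale per doubling of dose (SE 0.02, FDR = 0.0406), against 10.6% of all genes. Without any 1 of the 5 DasR lines ATIC no longer passed 0.05, and its FDR reached 0.639 without the 200 nM line.

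The controls were not alike. All 10 enzymes had a higher CPM in the DMSO than in the drug naive line, where 61.7% of all genes tested did. After TMM scaling, which corrects for the makeup of a library, 8 of the 10 did, against 51.8% of all genes. After that scaling the difference on the log2 scale was widest for PFAS, at 0.71, followed by CAD at 0.37 and ATIC at 0.31, while IMPDH2 at -0.02 and GMPS at -0.05 were slightly higher in the drug naive line. For PFAS it was close to the early stage log fold change of 0.76. In the late stage, 8 of the 10 were higher in the 200 nM than in the 50 nM line, against 52.9% of all genes. With 1 library of each line there is no test of these differences.

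Levels between genes were compared per length, as CPM per kilobase of the deposited gene length (RPKM), as mean and SD over the 7 lines. PAICS was highest at 190 ± 16.6 RPKM, followed by IMPDH2 at 152 ± 18.4, GMPS at 119 ± 10.4, GART at 106 ± 12, ATIC at 84.7 ± 13.5 and ADSL at 67.1 ± 11.2. PPAT at 40.1 ± 7.05, CAD at 37.4 ± 6.12, IMPDH1 at 25.5 ± 3.86 and PFAS at 19.4 ± 5.61 formed the lower end. In this order only ADSL and PPAT were neighbors whose ranges over the lines did not overlap. Per length, the transcript of the first committed enzyme, PPAT, was thus less abundant than those of most of the enzymes after it.

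Over the 7 lines the enzymes had few profiles in common. Of the 45 pairs, 22 had a negative Pearson correlation of log2 CPM and the median was 0.11, from -0.88 for PFAS with GMPS to 0.98 for PAICS with PFAS. These are descriptions over 7 lines that share 3 groups and library depth. Among the 5 genes outside the 10 whose profile was nearest to their mean were DDA1, POLD1, MRPL37 and RNF31, with root mean square differences from 0.027 to 0.034 on the log2 scale.

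Around the 10 enzymes, 75 further genes of nucleotide metabolism were grouped in 10 lists, and 65 of them were tested. In the early stage 16 of the 65 (24.6%) passed 0.005 in edgeR, 11 higher and 5 lower, and in the late stage 7 (10.8%), 3 higher and 4 lower, against the shares of 18% and 7.98% of all genes given above. Their median log2 fold changes were 0.08 and 0.10. Between the stages none passed 0.005 in edgeR and 25 of the 65 had an unadjusted p under 0.05, against 33% of all genes, while DESeq2 called 13, against 10.9%. The early stage count was 4 without the drug naive line (1.84% of all genes), 6 without DMSO (4.52%), 8 without the 15 nM (8.46%) and 5 without the 25 nM line (5.12%). The late stage count was 0 without the drug naive line (0.295% of all genes), 1 without DMSO (0.931%), and 4, 2, 3 and 2 without the 10, 25, 50 and 200 nM line (5.66%, 2.65%, 2.89% and 2.81%).

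**Figure D3:**
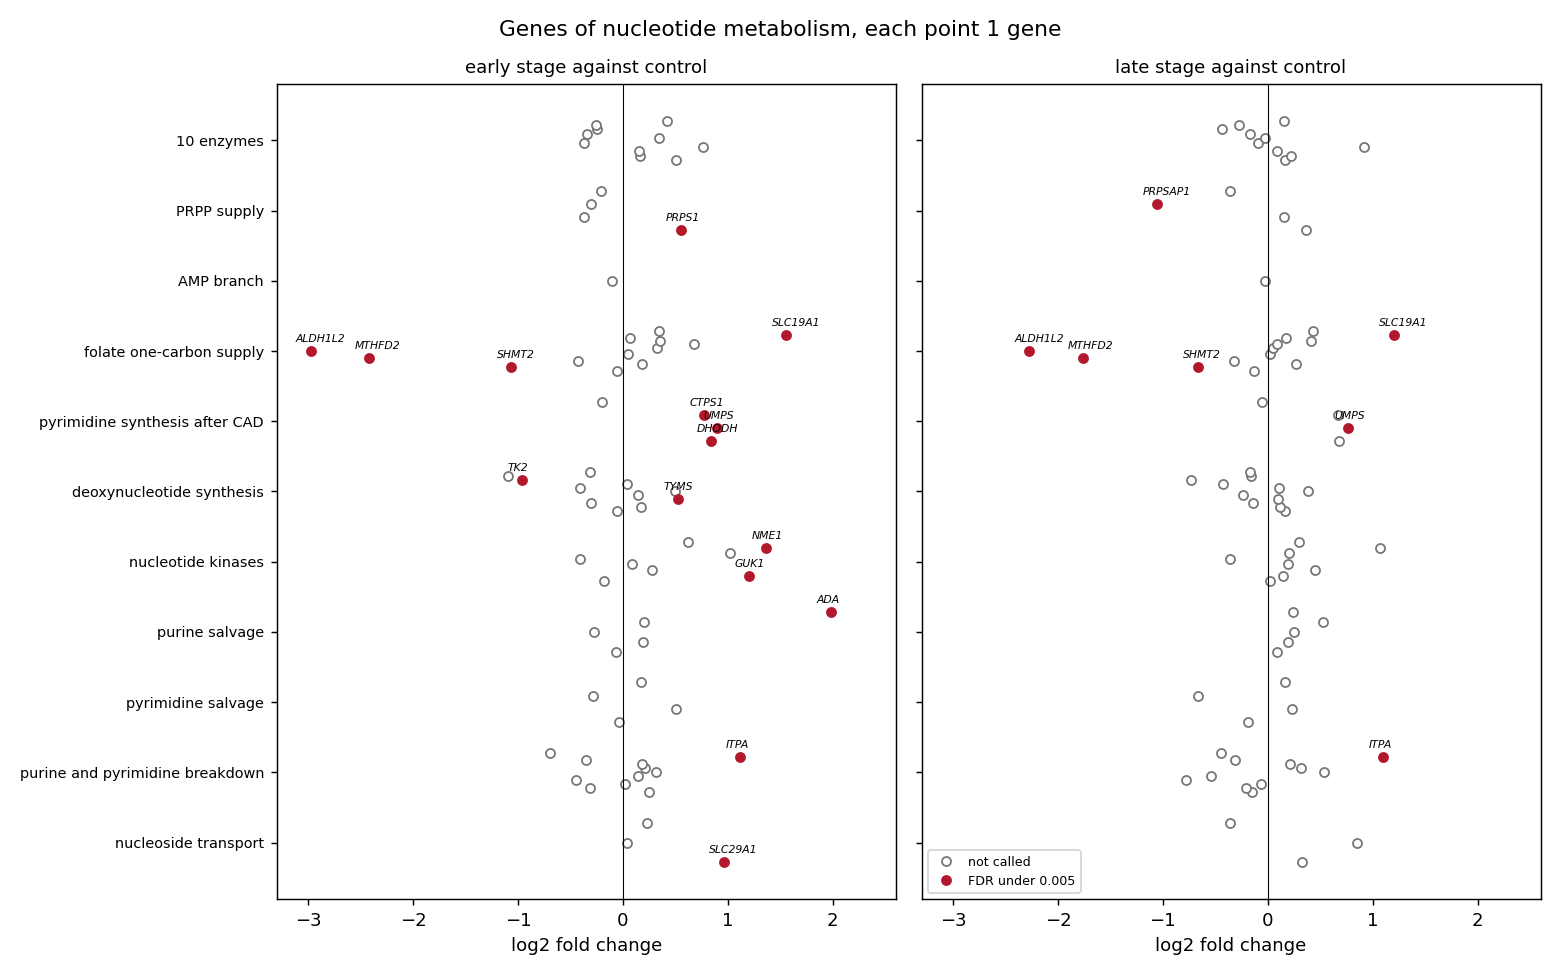
Log2 fold change (horizontal axis) of the 10 enzymes and of the tested genes of 10 further lists (vertical axis), with each point 1 gene, for the early (left) and late stage (right) against control; filled points passed an FDR of 0.005, and 1 folate gene is not shown. The 10 enzymes lie within 1 of 0 on the log2 scale and none is filled, while MTHFD2 and ALDH1L2 of the folate list lie furthest to the left in both stages.

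The folate list supplies the formyl groups used by GART and ATIC, and it held the largest changes. Of 14 genes tested, 5 passed 0.005 in the early stage, 4 lower and 1 higher (35.7%, against 18% of all genes). In the late stage 4 passed, 3 lower and 1 higher (28.6%, against 7.98%). MTHFD2, a mitochondrial enzyme of the one-carbon path, measured 684.2 and 663.1 CPM in the controls, 136.0, 113.2 and 131.6 in the early stage and 163.7 and 239.5 in the late stage. It fell by 2.42 on the log2 scale in the early (SE 0.16, FDR = 0.000157, edgeR) and by 1.76 in the late stage (SE 0.18, FDR = 0.00122). ALDH1L2, which oxidizes formyl folate in mitochondria, measured 280.1 and 241.7 CPM in the controls, 36.1, 29.1 and 35.3 in the early and 46.5 and 63.4 in the late stage. It fell by 2.98 (SE 0.16, FDR = 7.88e-05) and by 2.27 (SE 0.19, FDR = 0.000668). SHMT2, which transfers the carbon of serine to folate in mitochondria, fell by 1.07 (SE 0.08, FDR = 0.000182) and by 0.67 (SE 0.09, FDR = 0.00221). In none of these 3 genes did a DasR line reach the level of a control.

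SLC19A1, the carrier that brings reduced folate into the cell, measured 21.4 and 30.3 CPM in the controls, 70.2, 81.1 and 78.4 in the early and 55.6 and 64.7 in the late stage. It rose by 1.55 (SE 0.15, FDR = 0.000548, edgeR) and 1.2 (SE 0.16, FDR = 0.00266). The cytosolic enzymes MTHFD1 (0.18, FDR = 0.201) and SHMT1 (-0.06, FDR = 0.739) did not pass in the early stage, nor did they in the late stage (0.27, FDR = 0.115, and -0.13, FDR = 0.480). Early stage calls of MTHFD2, ALDH1L2, SHMT2 and SLC19A1 held when any 1 library was left out. In the late stage none of these 4 held without the drug naive line, and only ALDH1L2 held without DMSO. The late stage call of SHMT2 was also lost without the 10, 25, 50 or 200 nM line, and that of SLC19A1 without the 25, 50 or 200 nM line.

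In pyrimidine synthesis after CAD, DHODH, UMPS and CTPS1 were higher in all DasR lines. DHODH, which oxidizes dihydroorotate, measured 11.8 and 12.9 CPM in the controls, 20.5, 23.7 and 22.5 in the early and 19.9 and 20.1 in the late stage. UMPS measured 18.8 and 23.9, then 41.0, 39.1 and 40.6, then 37.2 and 36.6 CPM. CTPS1 measured 87.5 and 120.1, then 173.8, 174.7 and 189.7, then 174.1 and 160.8 CPM. For each of these 3 genes the DasR lines and the controls did not overlap. Of the 4 genes in the list, these 3 rose in the early stage, by 0.84 for DHODH (SE 0.12, FDR = 0.00184, edgeR), 0.90 for UMPS (SE 0.12, FDR = 0.00128) and 0.78 for CTPS1 (SE 0.13, FDR = 0.00344), and CTPS2 had a value of -0.20 (FDR = 0.0855). In the late stage UMPS rose by 0.77 (SE 0.12, FDR = 0.00479, edgeR), while DHODH at 0.68 (FDR = 0.00805) and CTPS1 at 0.67 (FDR = 0.0116) did not pass 0.005. The calls were thus 75% of the list in the early and 25% in the late stage, against 18% and 7.98% of all genes. The late stage call of UMPS held in 4 of 15 alternatives and was lost whichever library was left out. None of the 3 early stage calls held without the drug naive line, where the FDR was 0.0201 for DHODH, 0.0117 for UMPS and 0.0204 for CTPS1. The call of DHODH was also lost without DMSO, the 15 nM or the 25 nM line, that of CTPS1 without the 10, 15 or 25 nM line and that of UMPS without the 25 nM line.

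**Figure D4:**
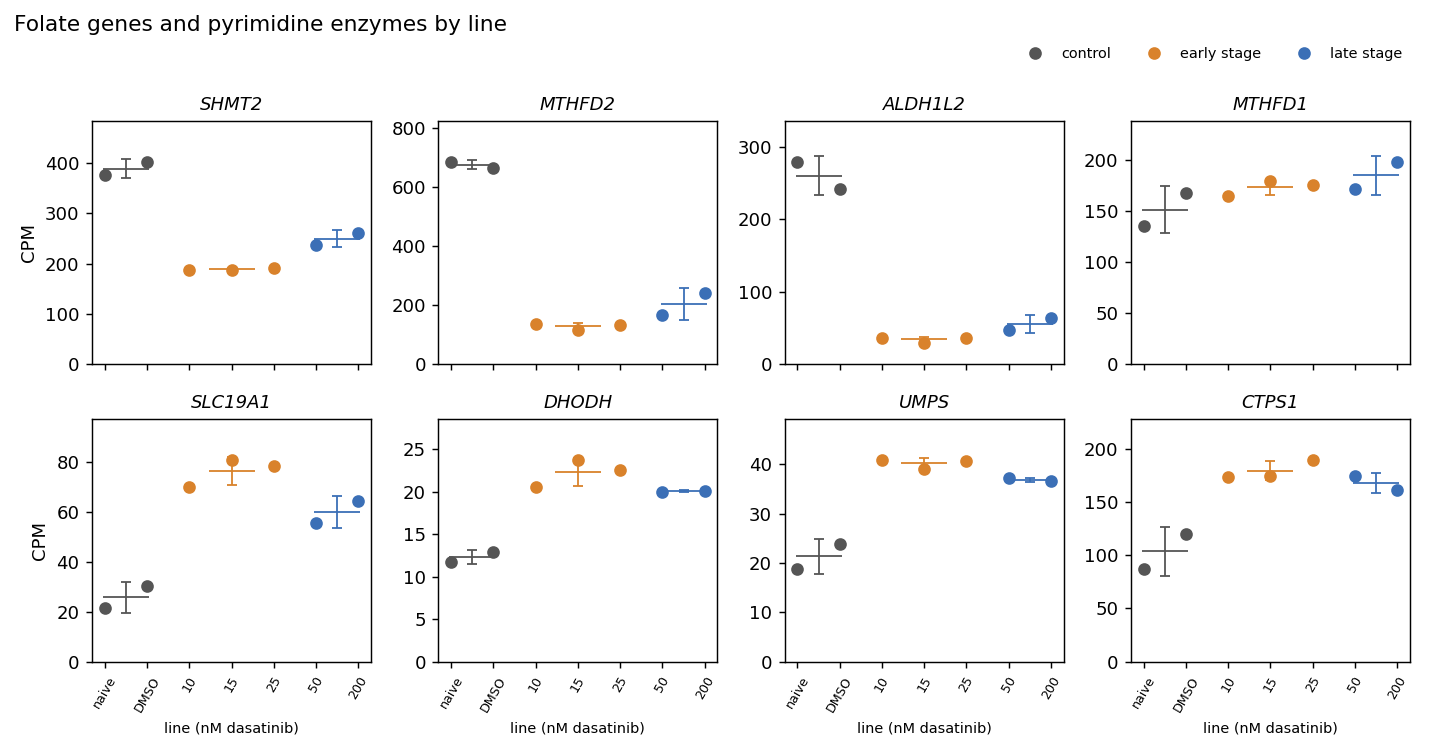
Level in CPM (vertical axis, from 0) of 5 folate genes and 3 pyrimidine enzymes in the 7 lines (horizontal axis, in order of dose), where each point is 1 library and the bars are the mean and SD of each group. SHMT2, MTHFD2 and ALDH1L2 are below both controls in all 5 DasR lines, MTHFD1 overlaps the controls in the early stage, and SLC19A1, DHODH, UMPS and CTPS1 are above both in all 5.

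In the list of PRPP supply, PRPS1, which makes the PRPP used by PPAT, rose by 0.55 in the early stage (SE 0.09, FDR = 0.00290, edgeR). PRPSAP1, a regulatory partner of that synthetase, fell by 1.06 in the late stage (SE 0.16, FDR = 0.00409, edgeR). In each stage this was 1 of 4 genes (25%), against 18% of all genes in the early and 7.98% in the late stage. The AMP branch had 1 tested gene, ADSS2, which makes adenylosuccinate from IMP, at -0.10 (FDR = 0.525) and -0.02 (FDR = 0.906). In the salvage of purines 1 of 5 genes (20%, against 18% of all genes) passed in the early stage. This was ADA, which deaminates adenosine, at 5.3 and 8.9 CPM in the controls, 28.6, 32.8 and 24.0 in the early and 10.5 and 6.5 in the late stage. ADA rose by 1.98 in the early stage (SE 0.29, FDR = 0.00223), and its late stage lines overlapped the controls. HPRT1, which returns hypoxanthine and guanine to nucleotides, had values of -0.07 (FDR = 0.497) and 0.09 (FDR = 0.453), and no gene of pyrimidine salvage passed in either stage.

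Of 11 genes for deoxynucleotides, TYMS, which makes thymidylate, rose by 0.52 (SE 0.09, FDR = 0.00403, edgeR) and TK2, the mitochondrial thymidine kinase, fell by 0.97 (SE 0.17, FDR = 0.0044) in the early stage, and none passed in the late stage. The early stage calls were 18.2% of the list, against 18% of all genes. The subunits of ribonucleotide reductase had early stage values of -0.06 for RRM1 (FDR = 0.614) and 0.18 for RRM2 (FDR = 0.248). Of 8 nucleotide kinases, NME1 rose by 1.37 (SE 0.24, FDR = 0.00389, edgeR) and GUK1, which phosphorylates GMP, by 1.21 (SE 0.21, FDR = 0.00381) in the early stage and none passed in the late stage. The early stage calls were 25% of the kinases, against 18% of all genes. NME1 has a close neighbor and paralog in NME2, so the division of reads between them is uncertain. ITPA, which removes faulty purine nucleotides, rose by 1.12 in the early (SE 0.16, FDR = 0.00195, edgeR) and by 1.10 in the late stage (SE 0.17, FDR = 0.00434). In each stage it was 1 of 11 tested genes of breakdown (9.09%), against 18% and 7.98% of all genes. SLC29A1, a carrier of nucleosides, rose by 0.96 in the early stage (SE 0.11, FDR = 0.000799, edgeR), as 1 of 3 tested transporters (33.3%, against 18% of all genes). The calls of this and the previous paragraph passed 0.005 with all 7 libraries but depended on several of them. None passed without the drug naive line or without DMSO. In the early stage those of PRPS1, ADA, TYMS and TK2 were also lost without the 10, 15 or 25 nM line, those of GUK1 and NME1 without the 25, 50 or 200 nM line, that of NME1 without the 15 nM line as well, and that of ITPA without the 15 or 25 nM line. In the late stage that of PRPSAP1 was also lost without the 25, 50 or 200 nM line, and that of ITPA held without the 50 nM line alone. All of these had an FDR under 0.05 whichever library was left out.

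Genes of the cell cycle and MYC were measured beside the enzymes. Of 13 cell cycle genes, 1 rose and 1 fell past an FDR of 0.005 in each stage in edgeR. This was 15.4%, against 18% of all genes in the early and 7.98% in the late stage. At an FDR of 0.05, 5 were higher and 1 was lower in the early stage (46.2%, against 46.5% of all genes). In the late stage 2 were higher and 1 was lower (23.1%, against 33.9%). PCNA, the sliding clamp of replication, rose by 1.24 in the early (SE 0.10, FDR = 0.000243, edgeR) and 0.94 in the late stage (SE 0.10, FDR = 0.00141), and TOP2A, a topoisomerase of dividing cells, fell by 0.89 (SE 0.11, FDR = 0.00105) and 0.82 (SE 0.12, FDR = 0.00356). The early stage call of PCNA held whichever library was left out. That of TOP2A was lost without the drug naive, DMSO or 25 nM line, the late stage call of PCNA without the drug naive, DMSO, 25 nM or 200 nM line, and the late stage call of TOP2A without any 1 library but the 15 nM line. MKI67 had values of 0.50 (FDR = 0.00734) and 0.18 (FDR = 0.258). The summed level of the 13 genes was 3631.3 and 3953.2 CPM in the controls, 3891.9, 3972.2 and 4059.6 in the early stage and 3646.8 and 3756.9 in the late stage, so the sums overlapped. TOP2A was the most abundant of them in the controls and on average over all lines, while MKI67 was above it in every DasR line. Without TOP2A, a choice made after its values were seen, the sums were 2737.5 and 3099.8 CPM in the controls. They were 3377.8, 3547.6 and 3570.0 in the early stage and 3125.6 and 3273.1 in the late stage, all DasR lines being above both controls. In the early stage 7 of the 13 genes were above and 1 was below both controls, against 35.9% and 34% of all genes. MYC measured 230.2 and 235.0 CPM in the controls, 284.2, 264.8 and 276.9 in the early and 242.9 and 263.5 in the late stage, with log fold changes of 0.23 (SE 0.08, FDR = 0.0511) and 0.10 (SE 0.09, FDR = 0.404). Every DasR line was above both controls in MYC. The change passed neither threshold in edgeR, although in the early stage 7 of 15 alternatives had an FDR under 0.05, among them DESeq2 (FDR = 0.0257), and none had one under 0.005.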

How the data were processed

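RNA was sequenced from 7 K562 lines, with 1 library each. Reads were aligned by the authors to hg19 with STAR and counted per gene with featureCounts, and the deposited counts are not normalized. The strand setting of the counting is not given in the sources used here. Of the deposited comparison tables only the symbols and gene lengths were used; their log2 fold changes, mean expression, p-values and FDR values hold the authors' comparisons. The members and gene lists were chosen with earlier results of these data known, and the stages were set by the authors from clustering of these libraries.

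A gene was tested if it reached 10 CPM in 2 or more libraries, as did 10452 of 25702. Counts were scaled by TMM (factors 0.972 to 1.01) and tested with edgeR 4.0.16 (glmQLFit, glmQLFTest) in R 4.3.3, with all 7 libraries in the stage fits, Benjamini-Hochberg adjustment over all genes and an FDR of 0.005. SE is the log2 fold change over the root of F. Lines of a group served as replicates, so p-values measure the spread between lines, which includes dose. The DasR lines are successive samples of a single escalation, so this spread is not that between independent derivations. No line has a repeat library. Libraries of a group differed beyond counting noise (chi-square per degree of freedom 14.5 to 45.0). The functions were tested on simulated counts.

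Alternatives covered scaling, filter, threshold, limma 3.58.1 voom, DESeq2 1.42.0, the libraries in the fit and leaving out each library. Positions and overlaps came from GENCODE v44lift37 (GRCh37). The named genes are the 10 enzymes, up to 4 called genes of each list, MYC, cell cycle genes and the 5 nearest profiles; others account for a list. Protein sequences were not analysed here. A few genes are left out of the text.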

Additional observations from a re-analysis of the deposited data

How the results depend on the processing

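Of 2116 values of single genes under the alternatives, 1893 kept their direction and side of the threshold, 39 passed it only in the alternative, 148 no longer passed it, and 36 changed sign, all of genes that were not called in that comparison. For the 10 enzymes, an FDR of 0.05 gave 6 calls in the early stage, 3 in the late stage, 3 for all DasR lines and 1 for the dose trend. In the early stage upper quartile scaling, limma voom and no filter gave 1 each (PPAT), and DESeq2 gave 2. DESeq2 also gave 2 in the late stage, 2 for all DasR lines and 1 for the trend. No library left out gave a call among the 10 in any comparison. For the 65 pathway genes in the early stage, an FDR of 0.05 gave 32 (49.2%, against 46.5% of all genes), and 4 to 16 were called when 1 library was left out. In the late stage an FDR of 0.05 gave 22 (33.8%, against 33.9%), DESeq2 gave 14, the libraries compared alone gave 2, and leaving out 1 library gave 0 to 5. Between stages an FDR of 0.05 gave 15 (23.1%, against 12.7%), DESeq2 gave 13 (10.9% of all genes) and no filter gave 1 (1.3%). The cause of these differences was not tested. Over all genes, DESeq2 called 3548 in the early and 2503 in the late stage, against 1881 and 834 with edgeR, and without the drug naive line edgeR called 187 and 30. Where a group is left with 1 library, that library is assumed to vary like the other groups. No paired analysis was possible because the lines carry no shared replicate numbers. The counting error of the 10 enzymes was at most 3.10% in a library.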
